A study of Mus musculus with 18 samples.

Results

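The genes examined here are 7 genes of the melanosome, the organelle in which pigment cells make and store melanin: Pmel, Mlana, Tyr, Tyrp1, Dct, Slc45a2 and Mitf. They were chosen by name, with earlier results of these data known. A probe set, the group of short oligonucleotides that reads 1 transcript on an Affymetrix array, was taken where the platform's annotation named 1 of these symbols and no other gene. This gave 13 of the 34945 probe sets that name a single gene, and 7 of 18193 genes. Tyr and Tyrp1 have 3 probe sets each, Slc45a2 and Mitf have 2 each, and Pmel, Mlana and Dct have 1 each. The arrays measured total RNA of whole retina from male C57BL6/J mice aged 2 months, a pigmented strain, after a single injection into the vitreous. The 6 groups are retinas injected with DEX (dexamethasone) and taken at day 30, with TAA (triamcinolone) at day 30, with BSS, the vehicle control, at day 30, and the same DEX, TAA and BSS groups taken at day 7. Both drugs are glucocorticoids. Each group holds 3 biological replicates on 1 array each, 18 arrays in all, and all 6 groups share the injection itself. The labels used here give no injected amount, and do not say whether a replicate is 1 retina or a pool.

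Melanin in the mouse eye is made by the retinal pigment epithelium, a single cell layer behind the photoreceptors, by the pigmented epithelia of the ciliary body and iris, and by melanocytes of the choroid and iris stroma. The neural retina itself holds no melanin. PMEL forms the amyloid fibrils on which melanin is laid down, and MLANA, a small membrane protein, is known in human cells to bind PMEL. Tyrosinase, the product of Tyr, catalyses the first steps from tyrosine, and TYRP1 and DCT (dopachrome tautomerase) act further along the pathway to the brown-black pigment eumelanin. SLC45A2 is a transporter that keeps the melanosome lumen fit for tyrosinase. MITF is the basic helix-loop-helix transcription factor that drives these genes in pigment cells.

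In the mouse genome build GRCm38.p6, RefSeq places Tyrp1 at chr4:80834123-80851736, Mitf at chr6:97807002-98021360, Tyr at chr7:87424771-87493512, Pmel at chr10:128695888-128720238, Dct at chr14:118012790-118052246, Slc45a2 at chr15:11000721-11029233 and Mlana at chr19:29697541-29708447. All 7 are protein-coding. The promoter windows of the 3 melanin enzymes are shown because MITF is known to act on each of them through a short element, the M-box, which contains an E-box. The promoter set used holds no window for Pmel, Mlana or Slc45a2. Whether this element bears on how the genes vary together was not tested. Each window runs from 250 bases before to 50 bases after the annotated start, read 5′ to 3′ on the gene's strand, from RefSeq. Capitals mark the 7 letters TCATGTG, the M-box core, or their reverse complement CACATGA.
Tyr, chr7:87493463-87493762, minus strand: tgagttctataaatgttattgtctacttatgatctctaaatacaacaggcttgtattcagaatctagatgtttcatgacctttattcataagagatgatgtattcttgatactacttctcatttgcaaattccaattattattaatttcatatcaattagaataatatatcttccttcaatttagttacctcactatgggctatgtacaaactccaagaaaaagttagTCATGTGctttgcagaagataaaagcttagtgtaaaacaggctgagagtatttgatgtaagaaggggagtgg
Tyrp1, chr4:80833963-80834262, plus strand: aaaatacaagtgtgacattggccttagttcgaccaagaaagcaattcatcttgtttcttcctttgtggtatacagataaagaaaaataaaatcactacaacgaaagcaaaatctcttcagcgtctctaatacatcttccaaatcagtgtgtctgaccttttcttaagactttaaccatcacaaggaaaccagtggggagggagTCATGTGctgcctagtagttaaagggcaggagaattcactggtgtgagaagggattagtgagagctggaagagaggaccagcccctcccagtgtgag
Dct, chr14:118052197-118052496, minus strand: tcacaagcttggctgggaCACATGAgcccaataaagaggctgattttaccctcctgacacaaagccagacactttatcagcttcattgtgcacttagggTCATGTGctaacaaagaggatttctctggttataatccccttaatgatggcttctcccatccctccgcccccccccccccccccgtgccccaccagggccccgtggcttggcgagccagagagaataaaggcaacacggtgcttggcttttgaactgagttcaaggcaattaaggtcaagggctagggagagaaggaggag

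The search covered both strands. TCATGTG begins 22 bases before the start used for the Tyr window, 47 bases before that for Tyrp1 and 151 bases before that for Dct. The start used for Tyrp1 lies inside the gene span given above, and so does its TCATGTG. In all 3 windows TCATGTG is followed by the bases ct. Dct also holds CACATGA, the same element on the opposite strand, beginning 232 bases before its start. Of 32851 mouse promoter windows of the same length, 3.77% hold TCATGTG on either strand. The shorter E-box CATGTG, which lies inside TCATGTG, is in 14.2% of the windows, and the palindromic E-box CACGTG is in 7.15%. None of the 3 letter strings occurs in the 3 windows listed for Mitf, at chr6:97806808-97807107, chr6:97929567-97929866 and chr6:97991533-97991832. A match is a description of these letters and was set against no binding data.

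The deposited values are on a log2 scale, with 0 set for each probe set at its median across the series. A value of 1 therefore stands for a doubling over the middle of the series, and no value gives an expression level or a signal over background. Neither the order of levels between these genes nor the presence of retinal or pigment cells can be read from them. One array stands apart for these genes, replicate 1 of the BSS day 7 group. On it Tyrp1, Dct, Mlana and Pmel ranked 1, 2, 3 and 5 of all 18193 genes by value, with Gja1, a gap junction gene, at rank 4. These 4 of the 7 members were above 1 there, as were 23 of the 18193 genes (0.126%). On the other 17 arrays the one member value above 1 was Dct on TAA day 30 replicate 3. BSS day 7 replicate 1 is 1 of the 3 arrays against which both drugs are compared at day 7, so those results are given with and without it. TAA day 30 replicate 3 carried the highest lens crystallin signal, with a mean of 3.85 over 15 crystallin and lens fibre genes.

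**Figure D1:**
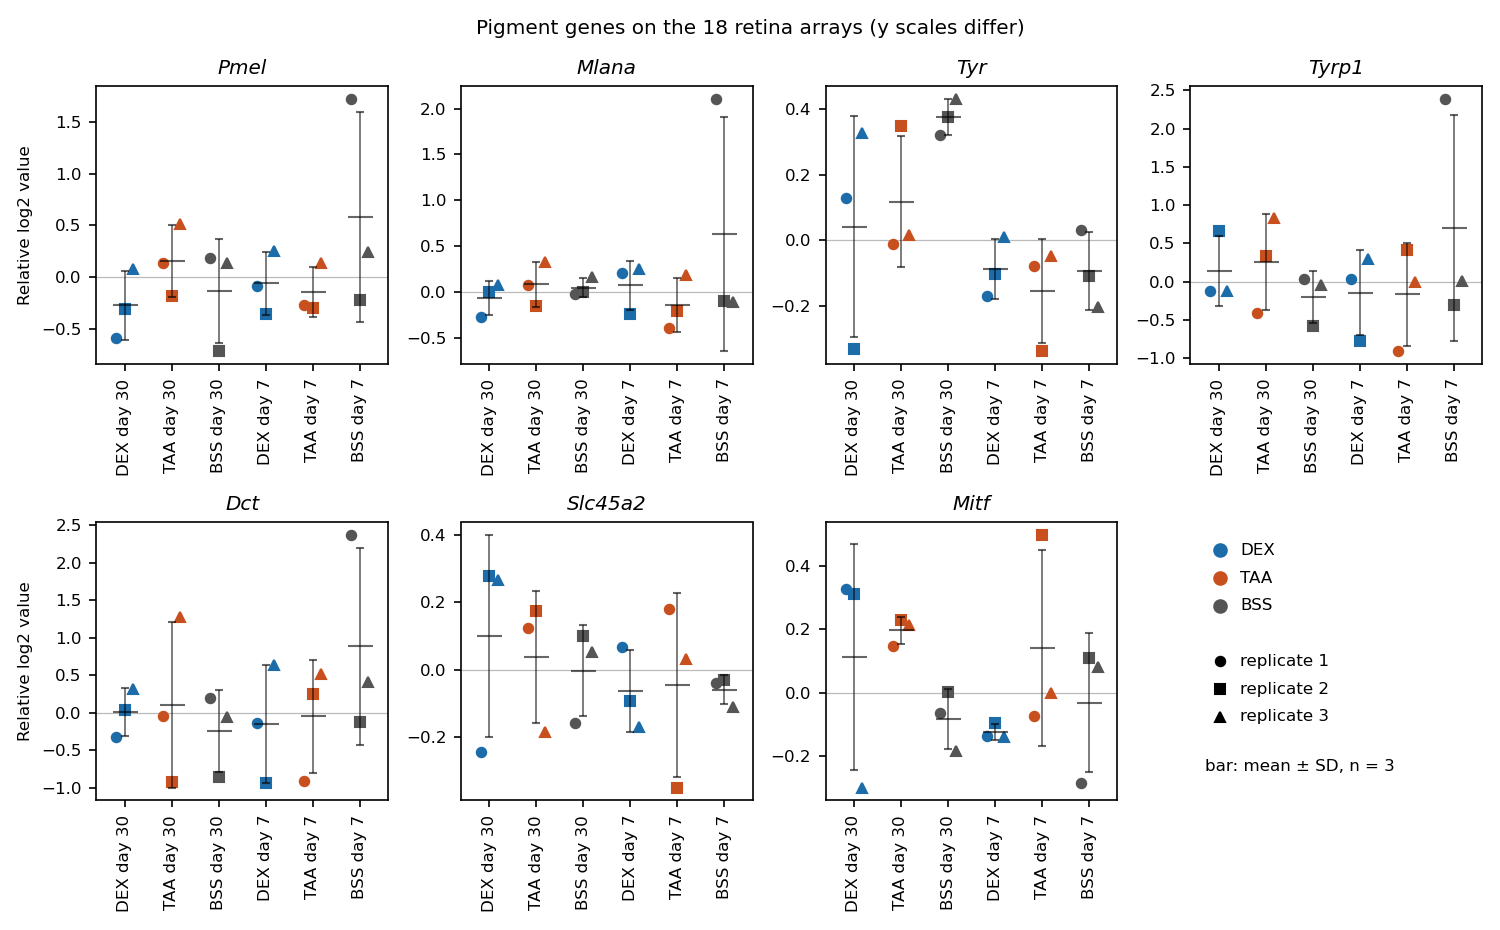
Relative log2 value (vertical axis, one scale per panel) of the 7 pigment genes in the 6 groups (horizontal axis). Each point is 1 array, with the shape giving the replicate number and the colour the injection, and each bar is the mean ± SD of 3 arrays. Pmel, Mlana, Tyrp1 and Dct each show 1 point far above the rest, BSS day 7 replicate 1 at 1.72 to 2.39, while the 3 BSS day 30 points of Tyr sit together at 0.32 to 0.43.

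Pmel and Mlana, the structural genes, had the same outstanding array. Pmel read -0.58, -0.30 and 0.078 in the DEX day 30 replicates, 0.14, -0.18 and 0.52 in TAA day 30, and 0.18, -0.71 and 0.14 in BSS day 30. At day 7 it read -0.078, -0.35 and 0.25 with DEX, -0.27, -0.30 and 0.14 with TAA, and 1.72, -0.22 and 0.25 with BSS. The highest value was thus 1.20 above the next one, and without it the groups overlapped throughout. Apart from BSS day 7 replicate 1, Mlana varied less than Pmel. Its DEX day 30 values were -0.28, 0.0016 and 0.075, the TAA day 30 values 0.074, -0.15 and 0.33, and the BSS day 30 values -0.026, -0.0016 and 0.17. At day 7, Mlana had 0.20, -0.24 and 0.25 in DEX retinas, -0.40, -0.20 and 0.18 in TAA retinas, and 2.11, -0.097 and -0.11 in BSS retinas. In Mlana 17 arrays lay between -0.40 and 0.33, and the remaining one was 1.78 above the highest of them.

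Tyrp1 and Dct, which encode the enzymes that act after tyrosinase, spread most. Tyrp1, by the probe set of widest interquartile range (1415861_at), read -0.12, 0.67 and -0.13 in DEX day 30, -0.41, 0.34 and 0.84 in TAA day 30, and 0.036, -0.59 and -0.049 in BSS day 30. At day 7 it read 0.030, -0.77 and 0.30 with DEX, -0.91, 0.41 and -0.010 with TAA, and 2.39, -0.31 and 0.010 with BSS. From its lowest array to its highest, Tyrp1 spanned 3.30 log2 units, 9.88-fold. Dct had -0.33, 0.038 and 0.32 in DEX day 30, -0.038, -0.92 and 1.28 in TAA day 30, and 0.20, -0.85 and -0.054 in BSS day 30. Its day 7 values were -0.14, -0.93 and 0.64 with DEX, -0.91, 0.25 and 0.52 with TAA, and 2.37, -0.13 and 0.41 with BSS. Dct spanned 9.86-fold, and every group held Dct arrays on both sides of 0.

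Tyr, the gene of the rate-limiting enzyme, did not share this pattern in the probe set of widest interquartile range. That probe set, 1448821_at, read 0.13, -0.33 and 0.33 in DEX day 30, -0.011, 0.35 and 0.015 in TAA day 30, and 0.32, 0.38 and 0.43 in BSS day 30. At day 7 it read -0.17, -0.10 and 0.011 with DEX, -0.079, -0.34 and -0.048 with TAA, and 0.033, -0.11 and -0.20 with BSS. The 3 BSS day 30 arrays lay above all 9 arrays of day 7. BSS day 7 replicate 1, the array highest in Pmel, Mlana, Tyrp1 and Dct, was unremarkable here at 0.033. The other probe sets of Tyr gave another picture. The highest value of 1417717_a_at was 0.56 on BSS day 7 replicate 1, followed by 0.37 on TAA day 30 replicate 3. The values of 1456095_at stayed between -0.15 and 0.24 on all arrays.

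Slc45a2, the transporter, stayed between -0.35 and 0.28 on all arrays. Its probe set 1437430_at read -0.25, 0.28 and 0.27 in DEX day 30, 0.12, 0.17 and -0.19 in TAA day 30, and -0.16, 0.098 and 0.051 in BSS day 30. At day 7 the values were 0.068, -0.092 and -0.17 with DEX, 0.18, -0.35 and 0.030 with TAA, and -0.038, -0.030 and -0.11 with BSS. All groups overlapped, and BSS day 7 replicate 1 lay near the middle. Mitf, the transcription factor, was measured by 2 probe sets. The first, 1455214_at, read 0.33, 0.31 and -0.30 in DEX day 30, 0.15, 0.23 and 0.21 in TAA day 30, and -0.066, 0.00074 and -0.18 in BSS day 30. Its day 7 values were -0.14, -0.095 and -0.14 with DEX, -0.073, 0.50 and -0.00074 with TAA, and -0.28, 0.11 and 0.081 with BSS. By this probe set the 3 TAA day 30 arrays lay above the 3 BSS day 30 arrays. On BSS day 7 replicate 1 it gave the second-lowest Mitf value of the series.

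Probe sets of the same gene did not always agree. The Mitf probe sets ran against each other (r = -0.56 over the 18 arrays), and at day 30 they put TAA on opposite sides of BSS, with a log2 difference of 0.28 ± 0.16 (SE) for 1455214_at and -0.18 ± 0.13 for 1422025_at. The Tyr probe set 1448821_at was unrelated to 1417717_a_at (r = 0.022), which itself followed 1456095_at (r = 0.66). The 3 Tyrp1 probe sets went together (r = 0.66, 0.91 and 0.81), although 1415862_at reached 0.66 on BSS day 7 replicate 1 where 1415861_at reached 2.39. The 2 Slc45a2 probe sets had r = 0.57. These correlations are descriptions over arrays that share one normalization. Which transcripts each probe set reads was not tested, so the differences named below belong to the probe set given with them.

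**Figure D2:**
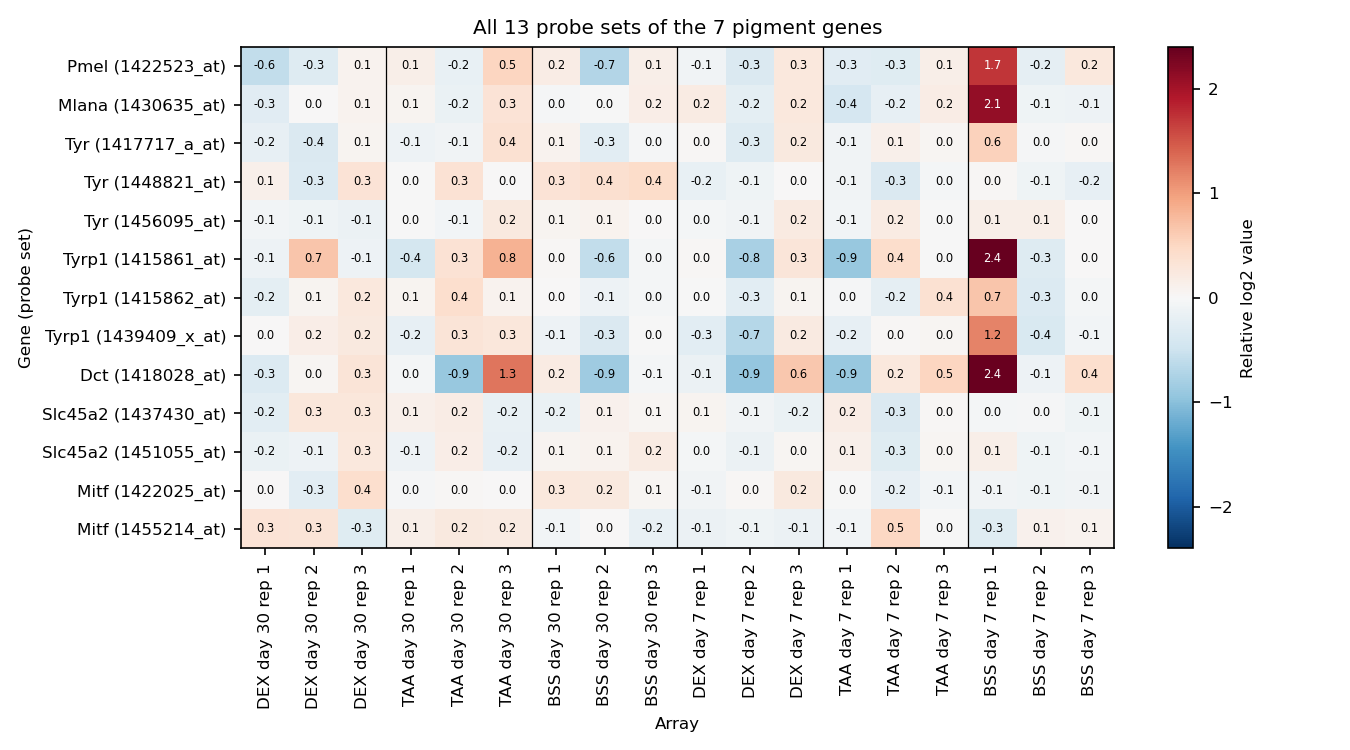
Relative log2 value (colour, printed to 1 decimal in each cell) of the 13 probe sets of the 7 pigment genes (rows) on the 18 arrays (columns, in blocks of 3 replicates). The column of BSS day 7 replicate 1 is raised for Pmel, Mlana, Dct, the 3 Tyrp1 probe sets (0.66 to 2.39) and Tyr 1417717_a_at (0.56). It is near 0 for Slc45a2 and at -0.28 for Mitf 1455214_at. The row of Tyr 1448821_at is raised in the BSS day 30 block.

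The spread between replicates set apart 4 of the genes. The residual SD within groups was 0.87 log2 units for Dct, 0.78 for Tyrp1, 0.56 for Mlana and 0.53 for Pmel, against a median of 0.17 over all probe sets. Each of these 4 was wider than at least 99.2% of the probe sets. Tyr (0.19, by 1448821_at), Slc45a2 (0.20) and Mitf (0.22) lay closer to the median, wider than 60.0%, 67.3% and 75.3% of the probe sets. Without BSS day 7 replicate 1, Dct (0.72) and Tyrp1 (0.52) were still wider than 99.7% and 99.2% of the probe sets. Pmel then stood at 0.35, wider than 95.6%, and Mlana at 0.22, wider than 74.3%. The number of arrays, 3 a group, limits the precision of every difference below.

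The first question of the design is what each drug did relative to vehicle. At day 30 no member passed after DEX: 0 of the 13 probe sets passed limma's moderated test at an adjusted p of 0.05, as did 0% of all 34945 probe sets. At an unadjusted p under 0.05 there was 1 of 13, against 11.8% of all probe sets. It was Tyr 1448821_at, which averaged 0.041 ± 0.34 in DEX retinas and 0.38 ± 0.055 in BSS retinas (SD, n = 3 each). The log2 difference was -0.34 ± 0.15 (SE, 95% interval -0.64 to -0.03), with an adjusted p of 0.399 by limma. The DEX and BSS arrays of this probe set overlapped, and without DEX day 30 replicate 2 the difference was -0.15. Those of Tyr 1456095_at did not overlap, with DEX at -0.070 or lower and BSS at 0.00088 or higher. The share of all probe sets that separate in this way was not counted, here or in the comparisons below. Dct stood at 0.25 ± 0.60, Tyrp1 at 0.34 ± 0.54, Pmel at -0.14 ± 0.37 and Mlana at -0.11 ± 0.39. The fit pools the spread of all 6 groups, so these SEs hold BSS day 7 replicate 1 although it is in neither group. Without it the same differences had SEs of 0.49 for Dct, 0.36 for Tyrp1, 0.25 for Pmel and 0.17 for Mlana, and this applies as well to TAA at day 30, to DEX against TAA and to time within each drug. No member passed without it in any of these. Leaving out another array changed the unadjusted count most without DEX day 30 replicate 3, where 3 of 13 (in Tyr and Mitf) were under 0.05 against 24.1% of all probe sets, and 0 of 13 passed. The 13 probe sets were above BSS in 6 and below in 7, with a median of -0.10, where the median over all probe sets was -0.02.

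After TAA at day 30 the members again gave 0 of 13 by limma, against 0% of all probe sets, and 0 of 13 at an unadjusted p under 0.05, against 7.03%. Tyr 1448821_at averaged 0.12 ± 0.20 in TAA retinas and 0.38 ± 0.055 in BSS retinas, a log2 difference of -0.26 ± 0.15 (95% interval -0.57 to 0.05). Mitf 1455214_at, whose TAA and BSS arrays did not overlap, averaged 0.20 ± 0.044 in TAA retinas and -0.083 ± 0.094 in BSS retinas. Its log2 difference of 0.28 ± 0.16 had an interval of -0.07 to 0.63. The arrays of the other Mitf probe set, 1422025_at, did not overlap either, but with TAA below BSS. There the highest TAA value was 0.030 and the lowest BSS value 0.054. Of the enzymes, Tyrp1 stood at 0.45 ± 0.54 and Dct at 0.34 ± 0.60, and the structural genes Pmel and Mlana at 0.29 ± 0.37 and 0.04 ± 0.39. Without TAA day 30 replicate 2, 1 of 13 (Tyr) had an unadjusted p under 0.05, against 8.79% of all probe sets. In all, 10 probe sets were above BSS and 3 below (median 0.12).

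At day 7 the comparisons with vehicle rest on the array that stands apart. After DEX, 0 of 13 passed by limma against 0% of all probe sets, and 0 of 13 had an unadjusted p under 0.05 against 3.41%. After TAA, 0 of 13 passed against 0.00286%, and 0 of 13 had an unadjusted p under 0.05 against 3.83%. The unadjusted counts moved with single arrays. Without BSS day 7 replicate 2, which leaves the array that stands apart as 1 of 2 vehicle arrays, 5 of 13 were under 0.05 for DEX against 2.03% of all, and 4 of 13 for TAA against 2.51%, all in Pmel, Mlana, Tyrp1 and Dct. Without BSS day 7 replicate 3 there were 1 for DEX, against 1.82%, and 2 for TAA, against 2.66%. Without BSS day 7 replicate 1 there were 0 for both, against 4.5% for DEX and 3.74% for TAA. Leaving out DEX day 7 replicate 3 gave 2 for DEX against 3.85%, and leaving out TAA day 7 replicate 3 gave 1 for TAA against 6.07%. None passed after adjustment in any of these fits. The differences were wide. Pmel averaged -0.058 ± 0.30 in DEX retinas, -0.14 ± 0.24 in TAA retinas and 0.58 ± 1.01 in BSS retinas (SD, n = 3 each). Its log2 difference from BSS was -0.64 ± 0.37 for DEX and -0.72 ± 0.37 for TAA. Without BSS day 7 replicate 1 these were -0.07 ± 0.28 and -0.16 ± 0.28.

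The same held for the other 3 genes that stood high on that array. Mlana averaged 0.072 ± 0.27 in DEX retinas, -0.14 ± 0.30 in TAA retinas and 0.63 ± 1.28 in BSS retinas. Its differences were -0.56 ± 0.39 for DEX and -0.77 ± 0.39 for TAA, against 0.18 ± 0.18 and -0.03 ± 0.18 without the array. Tyrp1 1415861_at had -0.85 ± 0.54 for DEX and -0.87 ± 0.54 for TAA, against 0.0024 ± 0.40 and -0.02 ± 0.40 without it. Dct had -1.03 ± 0.60 and -0.93 ± 0.60, against -0.29 ± 0.55 and -0.19 ± 0.55. All of the intervals without the array included 0, and so did those with it. The remaining kept probe sets moved little: Tyr stood at 0.0057 for DEX and -0.06 for TAA, Slc45a2 at -0.0048 and 0.01, and Mitf at -0.09 and 0.17. Over all 13 probe sets, 2 were above BSS after DEX with all arrays and 7 without that array, and after TAA 3 and 8. DEX and TAA share the 3 BSS arrays at each day, so the likeness of their values is no independent evidence.

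**Figure D3:**
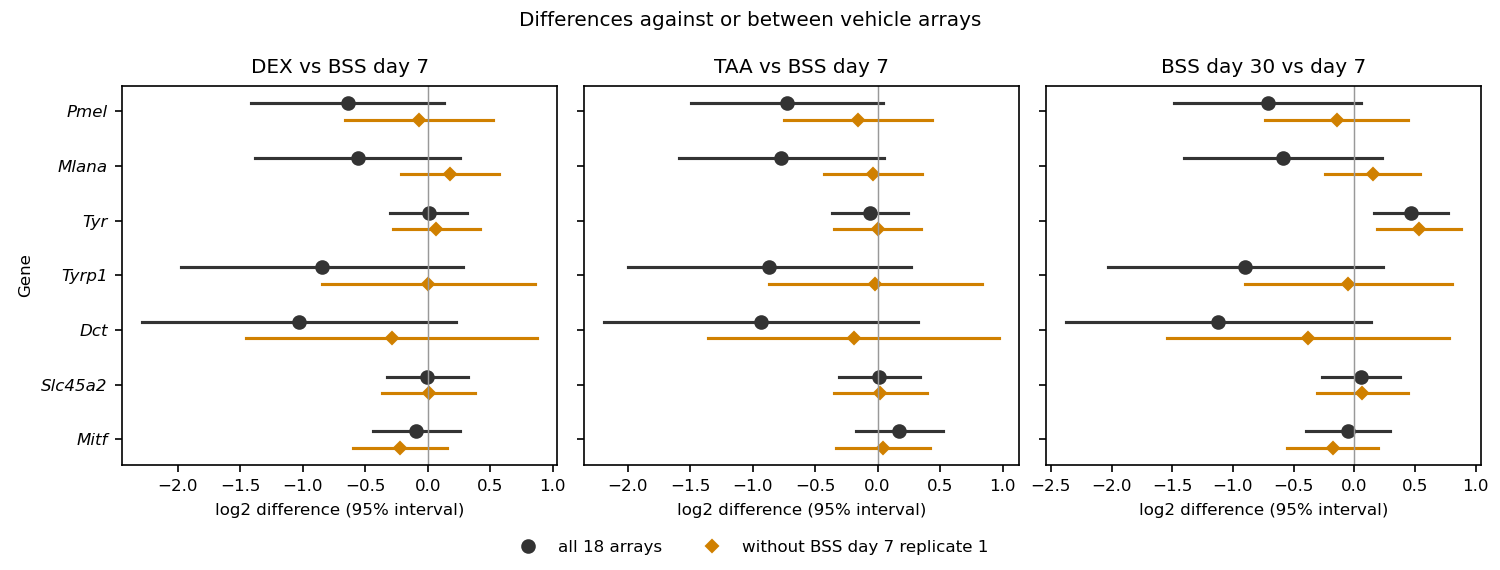
Log2 difference with its 95% interval (horizontal axis) for 1 probe set of each of the 7 genes (vertical axis), in the 3 comparisons that use the BSS day 7 arrays. Black circles are all 18 arrays, and orange diamonds the fit without BSS day 7 replicate 1. Pmel, Mlana, Tyrp1 and Dct lie between -1.12 and -0.56 with that array and between -0.38 and 0.18 without it, and Tyr in the comparison of BSS day 30 with day 7 is the one gene whose interval stays above 0.

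The second question is whether the drugs differ. At day 30, 0 of 13 probe sets differed between DEX and TAA by limma, against 0% of all probe sets, and 0 of 13 had an unadjusted p under 0.05 where 16.9% of all probe sets had one. The widest difference of a kept probe set was that of Pmel, -0.43 ± 0.37 (95% interval -1.20 to 0.34), with a mean of -0.27 ± 0.33 in DEX retinas and 0.16 ± 0.35 in TAA retinas. At day 7 the counts were 0 of 13 against 0%, and 0 of 13 at an unadjusted p under 0.05 against 6.28%. Mitf 1455214_at had the smallest p there, with -0.12 ± 0.026 in DEX retinas and 0.14 ± 0.31 in TAA retinas, a difference of -0.27 ± 0.16 (-0.61 to 0.08). Its DEX arrays, at -0.095 or lower, did not overlap its TAA arrays, at -0.073 or higher. For Dct the intervals ran from -1.35 to 1.16 at both days, so a 2-fold difference either way lies within them. The amounts of the 2 drugs are unknown here.

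The third question is the change with time. In vehicle retinas at day 30 against day 7, 0 of 13 probe sets passed by limma, against 0.0143% of all, and 1 of 13 had an unadjusted p under 0.05, against 7.1%. That one was again Tyr 1448821_at, which averaged 0.38 ± 0.055 at day 30 and -0.093 ± 0.12 at day 7. Its log2 difference was 0.47 ± 0.15 (95% interval 0.16 to 0.78), or 1.39-fold, with an adjusted p of 0.569 by limma. The day 30 and day 7 arrays did not overlap, and leaving out any 1 of the 6 arrays gave 0.42 to 0.53. It was 0.53 ± 0.16 without BSS day 7 replicate 1. The unadjusted count was 6 of 13 without BSS day 7 replicate 2, against 4.09%, 3 without replicate 3, against 4.26%, and 2 without BSS day 30 replicate 3, against 4.51%, with 0 passing in each. The other Tyr probe sets did not show it, with -0.25 ± 0.18 for 1417717_a_at and -0.05 ± 0.11 for 1456095_at. Mitf 1422025_at averaged 0.18 ± 0.11 at day 30 and -0.090 ± 0.017 at day 7, a difference of 0.27 ± 0.13 with an adjusted p of 0.702 by limma, and its arrays did not overlap either. How many of all probe sets separate 3 arrays from 3 in this way was not counted for any comparison. Such separation is a description, and it is not named for every probe set that shows it. Dct (-1.12 ± 0.60), Tyrp1 (-0.90 ± 0.54), Pmel (-0.71 ± 0.37) and Mlana (-0.59 ± 0.39) were lower at day 30, and without the array that stands apart were at -0.38, -0.05, -0.14 and 0.15.

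In DEX retinas at day 30 against day 7, BSS day 7 replicate 1 is in neither group and enters through the pooled spread alone. Here 2% of all probe sets passed and 18.7% had an unadjusted p under 0.05, while 0 of the 13 did either by limma. The calls over all probe sets depended on single arrays: 700 with all arrays, 2, 10 and 416 without DEX day 7 replicates 1, 2 and 3, and 6, 7 and 2590 without DEX day 30 replicates 1, 2 and 3. Of the 13, 0 passed in these fits, and 1 had an unadjusted p under 0.05 in each of the last 3, Slc45a2, Tyr and Mitf in that order. Of all probe sets, 14.1%, 14.3% and 23.4% had one in those 3 fits. Mitf 1455214_at had 0.11 ± 0.36 at day 30 and -0.12 ± 0.026 at day 7, a difference of 0.24 ± 0.16. In TAA retinas 0 of 13 passed against 0%, and 0 of 13 had an unadjusted p under 0.05 against 12.4%. Tyr 1448821_at averaged 0.12 ± 0.20 at day 30 and -0.16 ± 0.16 at day 7, a difference of 0.27 ± 0.15 (-0.03 to 0.58), and its 3 arrays of day 30 were above those of day 7. TAA retinas had 12 of the 13 probe sets higher at day 30, with a median of 0.14, but the probe sets of 1 gene and the genes on 1 array are not replicates. Whether a drug's difference from BSS itself shifted with time was tested as an interaction. It passed in 0 of 13 for DEX, against 0%, and in 0 of 13 for TAA, against 0%. At an unadjusted p under 0.05 there were 0 of 13 for DEX, where 8.45% of all probe sets reached it, and 0 of 13 for TAA, where 5.83% did. There were 2 for DEX without BSS day 7 replicate 2, against 6.1%, and 4 for TAA, against 3.68%. Without BSS day 7 replicate 3 there were 1 for DEX, against 5.81%, and 2 for TAA, against 3.82%. There were 3 for DEX without DEX day 30 replicate 3, against 16.8%, and 1 without DEX day 7 replicate 3, against 7.22%. For TAA there were 2 without TAA day 30 replicate 2, against 8.25%. For Pmel the TAA effect was higher at day 30 by 1.01 ± 0.52 (-0.07 to 2.10), and by 0.44 ± 0.37 (-0.35 to 1.24) without BSS day 7 replicate 1.

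Other genes of the pigment pathway were followed through 3 lists. The list of other melanosome proteins and transporters holds 10 genes, of which 8 were measured, and that of melanosome assembly and transport 23 of 23. In that of pigment cell signalling and transcription, 19 of 19 entries were matched to a probe set. The entry Asip, the agouti signal, was matched through a synonym to a probe set annotated to Pard3. Its values are those of Pard3 and not of agouti, and the counts and medians of that list include them. None of their genes passed by limma in any of the 11 comparisons. In DEX retinas against BSS at day 7, the list medians were -0.04, -0.07 and 0.02, and in TAA retinas -0.02, 0.04 and -0.02, where the medians over all probe sets were -0.0041 and -0.0030. At unadjusted p under 0.05 the 50 matched genes of the 3 lists together had 2 higher and 0 lower after DEX. Those 2 were Ap3b1 and the Pard3 probe set, where 3.41% of all probe sets reached that p in either direction. After TAA there were 2 higher and 0 lower, against 3.83%. At day 30 there were 2 higher and 3 lower after DEX, against 11.8%, and 1 higher and 1 lower after TAA, against 7.03%.

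The listed genes of smallest p in each drug comparison follow, each with its SE and none passing. After DEX at day 7 they were Ap3b1, a subunit of the adaptor that sorts cargo to melanosomes (0.60 ± 0.18), the Pard3 probe set matched to Asip (0.38 ± 0.17), and Sytl2, a Rab27 effector (-0.29 ± 0.14). After TAA at day 7 they were the transcription factor Tfap2a (0.32 ± 0.12), endothelin 3, Edn3 (0.54 ± 0.22), and Hps3, which is mutated in a form of Hermansky-Pudlak syndrome (0.23 ± 0.12). After DEX at day 30 they were Trpm1, a cation channel of melanocytes and retinal ON bipolar cells (-0.49 ± 0.14), Edn3 (0.63 ± 0.22) and Tfe3, a relative of Mitf (-0.36 ± 0.13). After TAA at day 30 they were Bloc1s5 (0.25 ± 0.10) and Bloc1s3 (-0.30 ± 0.16), subunits of a melanosome assembly complex, and Mlph, melanophilin, which links melanosomes to myosin (-0.27 ± 0.11). Adjusted p-values by limma ran from 0.357 for Trpm1 for DEX at day 30 to just below 1 for DEX at day 7. Without BSS day 7 replicate 1 the DEX values of day 7 were 0.86 for Ap3b1, 0.51 for the Pard3 probe set and -0.38 for Sytl2. The TAA values were 0.35 for Tfap2a, 0.60 for Edn3 and 0.23 for Hps3.

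Genes that mark the pigment epithelium were followed in the same way. Of the 20 listed, 18 were measured, and 0 passed by limma in any comparison. In drug against vehicle at day 7, 3 of 18 were above BSS after DEX (median -0.14) and 6 of 18 after TAA (median -0.11). At day 30 it was 11 of 18 after DEX (median 0.08) and 5 of 18 after TAA (median -0.15). Unadjusted p by limma was under 0.05 at day 7 for 1 higher and 0 lower after DEX, against 3.41% of all probe sets. After TAA at day 7 it was so for 1 higher and 3 lower, against 3.83%. At day 30 there were 0 after either drug, against 11.8% for DEX and 7.03% for TAA. The smallest p belonged to Trpm3, a channel (0.93 ± 0.24), Rdh5, a retinol dehydrogenase (-0.53 ± 0.28), and Slc6a20a, an amino acid transporter (-0.44 ± 0.23) for DEX at day 7. For TAA at day 7 they were Kcnj13, a potassium channel (-0.997 ± 0.22), Tmem27 (-0.70 ± 0.22) and Rrh, peropsin (0.39 ± 0.15). At day 30 they were Krt8 (-0.21 ± 0.13), Lrat (0.57 ± 0.39) and Trpm3 (0.33 ± 0.24) for DEX, and Tmem27 (-0.40 ± 0.22), Kcnj13 (0.34 ± 0.22) and Otx1 (0.21 ± 0.13) for TAA. Trpm3 without BSS day 7 replicate 1 stood at 1.19, Rdh5 at -0.78 and Slc6a20a at -0.72 for DEX at day 7. For TAA at day 7 without that array, Kcnj13 stood at -1.04, Tmem27 at -0.75 and Rrh at 0.34. Fewer cells of a type and less RNA per cell cannot be told apart in whole retina.

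On the array that stands apart, some visual cycle genes of the pigment epithelium were at the other end of the scale. Rpe65, the isomerase of the visual cycle, read -1.29 on BSS day 7 replicate 1, and Rgr, an opsin of the pigment epithelium, read -1.47, each the lowest of the 18 arrays. Low values were not particular to it. Rpe65 read -1.28 on DEX day 7 replicate 2 and -1.26 on TAA day 30 replicate 1, where Rgr read -1.31 and -1.26. Lrat, which makes retinyl esters, was at -0.62, Rdh5 at -0.24 and Rrh at -0.18, and Rlbp1, a carrier of retinoids, was at 0.04, in the middle of the arrays. Ttr, transthyretin, was at -1.16, and lower on TAA day 30 replicates 1 (-1.24) and 2 (-1.60). Of the whole list of 18, 8 were above 0 and 10 below. The list averaged -0.23 there, within the range of -0.40 to 0.21 on the other arrays. The list of ciliary and iris epithelium averaged 0.24 over 9 genes, the highest of the 18 arrays, next to 0.21 on TAA day 7 replicate 2. The list of choroid and scleral stroma averaged 0.46 over 10 genes, behind DEX day 7 replicates 1 and 3 at 0.66 and 0.52. Within it Dcn (1.48) and Fbln1 (1.19), both matrix genes, were at their highest. Col6a1 (-0.14), Pdgfra (-0.016) and Col1a1 (-0.00023) of that list were below 0, and its other members were above 0. The neural crest melanocyte list averaged -0.03 over 7 genes, with 4 above 0, Mc1r (0.15), Mlph (0.12), Sox10 (0.07) and Pax3 (0.06), and 3 below, Kit (-0.45), Mcam (-0.18) and Ednrb (-0.0070). Kit encodes the melanocyte growth factor receptor. Rab38, a small GTPase that sorts melanosome enzymes, was at 0.35 and Pax6, an eye transcription factor, at 0.26, each the highest of the 18. The rod photoreceptor list averaged 0.04. The part of any of these tissues in the pigment gene values was not tested.

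Of the 7 genes, 4 varied together from array to array. Over the 18 arrays, 6 of the 21 gene pairs passed a two-sided permutation test of Pearson's r with 100000 resamples, adjusted by Benjamini-Hochberg over the 21, and these were the 6 pairs among Pmel, Mlana, Tyrp1 and Dct (adjusted p from 0.00021 to 0.0078). Pmel with Mlana had r = 0.89 (p = 0.00015, adjusted 0.000787) and Spearman's rho = 0.70 (adjusted 0.0153). Pmel with Dct had r = 0.89 (adjusted 0.00021) and rho = 0.79 (adjusted 0.00336). Mlana with Dct had r = 0.82 and rho = 0.69, and Tyrp1 with Dct r = 0.84 and rho = 0.62, all past the threshold. Tyrp1 with Pmel (r = 0.79, rho = 0.51) and with Mlana (r = 0.84, rho = 0.49) did not pass by rho. Without the array that stands apart, r was 0.65 for Pmel with Mlana, 0.77 for Pmel with Dct, 0.69 for Mlana with Dct, 0.68 for Tyrp1 with Dct, 0.43 for Pmel with Tyrp1 and 0.50 for Mlana with Tyrp1. Without the 2 arrays farthest from the median of the first gene, 2 pairs passed, Pmel with Mlana (r = 0.76, adjusted p = 0.011) and Pmel with Dct (r = 0.74, adjusted p = 0.011). The relations of Tyrp1 with Pmel and Mlana thus rest on those arrays.

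Tyr, Slc45a2 and Mitf joined none of the pairs that passed. Tyr 1448821_at had r = -0.15 with Dct, whereas Tyr 1417717_a_at had r = 0.86 with it, and 0.77 without BSS day 7 replicate 1, both as descriptions. Slc45a2 had r = -0.29 with Dct. Mitf, the regulator of the pathway, was read here by probe set 1455214_at. This probe set had r = -0.21 with Dct, -0.45 with Pmel and -0.44 with Mlana (adjusted p = 0.153 for both Pmel and Mlana). Without BSS day 7 replicate 1 these correlations were 0.06, -0.28 and -0.32. The other Mitf probe set, 1422025_at, ran against 1455214_at (r = -0.56) and had r = -0.11 with Dct. When each value was taken as its deviation from its group mean, 9 pairs passed. These were the same 6 and Mitf 1455214_at with Pmel (r = -0.59), Tyr (r = -0.65) and Slc45a2 (r = -0.55). None of the 7 correlations with the mean of the pigment epithelium list passed (r between -0.30 and 0.24, all adjusted p of at least 0.852). For Dct, r was 0.24 over 18 arrays and 0.54 without BSS day 7 replicate 1.

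**Figure D4:**
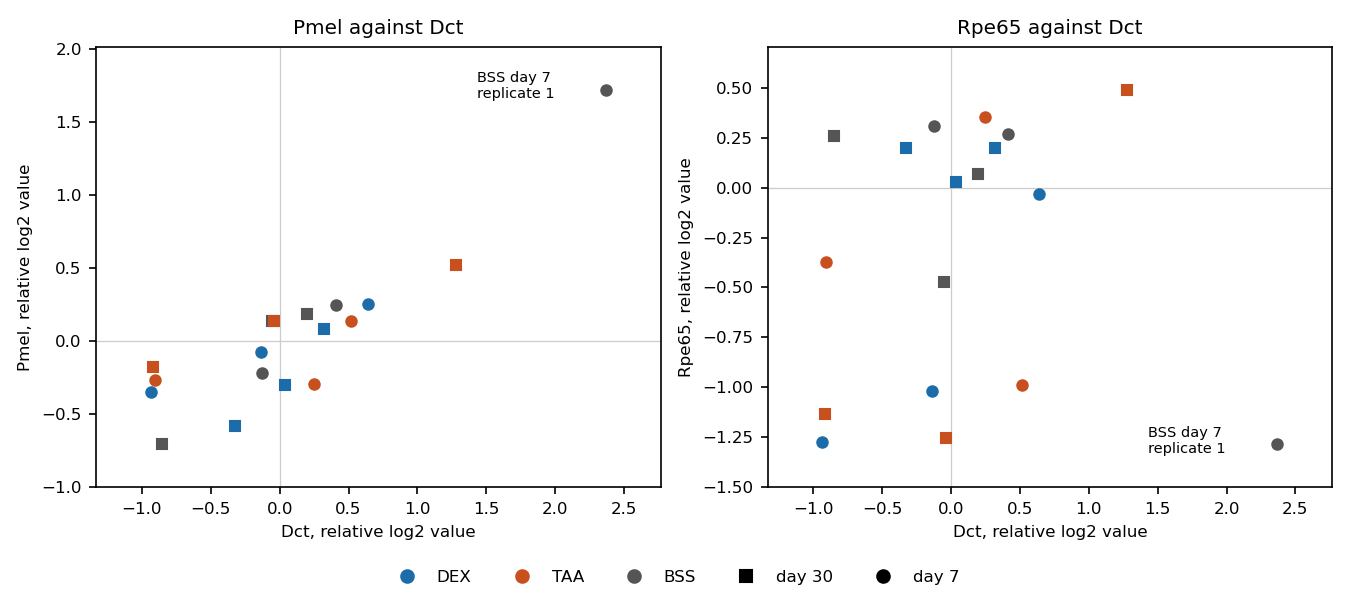
Pmel (left) and Rpe65 (right), vertical axes, against Dct, horizontal axes, all as relative log2 values on the 18 arrays, with colour for the injection and shape for the day. Pmel climbs with Dct (r = 0.89, and 0.77 without the labelled array). The labelled array combines the highest Dct, 2.37, with the lowest Rpe65, -1.29. DEX day 7 replicate 2, with the lowest Dct, -0.93, has nearly the same Rpe65, -1.28.

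Of all other genes, the 10 most like the mean of the 7 over the 18 arrays were Bmp2 (r = 0.87), Fibin (0.73), Rab38 (0.72), Col18a1 (0.72), Dcn (0.70), F5 (0.67), Niban1 (0.66), Slc26a7 (0.66), Ccnd2 (0.65) and Uty (0.64). Bmp2 encodes a bone morphogenetic protein, Col18a1 the collagen that gives endostatin, and Dcn the proteoglycan decorin. By deviations from the group means the 10 were Bmp2 (0.91), Col18a1 (0.84), Dcn (0.81), Fibin (0.81), Slc16a12 (0.79), F5 (0.75), Zfp212 (0.75), Niban1 (0.74), Ceacam14 (0.74) and Ccnd2 (0.74). Without BSS day 7 replicate 1, Bmp2 kept r = 0.62, Rab38 0.64 and Ccnd2 0.69, while Dcn dropped to 0.13, F5 to 0.28 and Niban1 to 0.28. The ranking over so many genes is a description and carries no test.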

How the data were processed

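Total RNA of 18 retinas or retinal pools was prepared by Qiagen RNeasy and labelled by the two-cycle Affymetrix protocol, per the labels' protocols, and processed with RMA, per the submitters' processing notes. Its version and settings are not given in the sources used here. The deposited values were read as log2, RMA's usual scale, and are centred by probe set: the median was within 5e-07 of 0 in all 45101 probe sets. Log base and direction were assumed from RMA's convention, since centred values do not show them. Array medians ran from -0.0234 to 0.00797. The labels give no batch or scan date.

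Probe sets were named from the platform annotation (34945 with 1 gene, 932 with several, 9160 unnamed, 64 controls). limma 3.58.1 in R 4.3.3 fitted 1 coefficient per group over the 18 arrays (12 residual degrees of freedom), with Benjamini-Hochberg adjustment over the 34945 probe sets and a threshold of 0.05. The fit was tested on simulated data. Where 1 probe set stands for a gene, it is the one of highest interquartile range. Beside the 7 genes, the text names the 3 listed genes of smallest p per drug comparison, any listed gene that passed, and the 10 genes most like the mean of the 7. Promoter sequences are from RefSeq. The members and lists were chosen with earlier results of these data known. The deviations of same-numbered replicates correlated above 0.1 in every pair (r of 0.107, 0.140 and 0.257) in DEX against BSS at day 30, and not in every pair of any of the other 8 comparisons of 2 groups.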

Additional observations from a re-analysis of the deposited data

How the results depend on the processing

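No member passed in any of the 11 comparisons under all but 1 of the alternatives: 1 probe set per gene, all probe sets, the more variable probe sets alone, quantile normalization, robust moderation, the compared groups alone, and each array left out in turn (0 called in each). With a replicate block the count was also 0 in every comparison. This includes DEX against BSS at day 30, where the deviations of same-numbered replicates correlated above 0.1 in every pair. The labels do not say that replicates of the same number are paired. With array weights 1 member was called in DEX against BSS at day 30 (Tyr, -0.36, adjusted p = 0.0411), 1 in BSS day 30 against day 7 (Tyr, 0.50, adjusted p = 0.0225) and 1 in DEX day 30 against day 7 (Mitf, 0.39, adjusted p = 0.0253), all by limma. The weights raised the calls over all probe sets too, to 5200, 658 and 7323 against 0, 5 and 700. Of 63 differences of the kept probe sets, 31 changed sign in some fit without 1 array. Without DEX day 30 replicate 2, Tyr in DEX against TAA at day 30 stood at 0.11 in place of -0.08. The 6 correlated pairs became 2 without the 2 arrays farthest from the median, 4 by Spearman's rho, which was added after seeing the data, and 9 by deviations from group means. The count of 9 comes from a permutation that treats the dependent deviations of a group as independent. Depth does not apply, and signal over background cannot be read from centred values.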

Other observations

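Of the 144 listed genes matched to a probe set, with Asip matched to that of Pard3, 2 that are no pigment genes passed in DEX retinas at day 30 against day 7. Mgp, matrix Gla protein of the stroma list, fell by 1.25 ± 0.22 (SE) on the log2 scale with an adjusted p of 0.0179 by limma, and Tmem119, a microglia marker, fell by 0.53 ± 0.12 with an adjusted p of 0.0387. In that comparison 2% of all probe sets passed. Mgp fell by 1.11 to 1.41 over the fits without 1 of the 6 arrays and passed in 2 of them, without DEX day 7 replicate 3 (adjusted p = 0.0300 by limma) and without DEX day 30 replicate 3 (0.00560). Tmem119 fell by 0.43 to 0.60 and passed in the same 2 fits (0.0488 and 0.0254). Without DEX day 7 replicates 1 or 2, or DEX day 30 replicates 1 or 2, neither passed, with adjusted p from 0.0692 to 0.220. The calls over all probe sets numbered 700 with all arrays, 2 to 2590 in these fits, and 1 with only the compared groups in the fit.

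With BSS day 7 replicate 1 left out, a ranking made after seeing the data put Cfap206 (r = 0.74), Tmem165 (0.73), Ccdc171 (0.73), Metrnl (0.72), Ccnd2 (0.69) and Slc26a7 (0.69) closest to the mean of the 7 pigment genes over 17 arrays. Metrnl had r = 0.16 with that array included. The mean of Pmel, Mlana, Tyrp1 and Dct, chosen after their values were seen, was 2.15 on BSS day 7 replicate 1, 0.74 on TAA day 30 replicate 3 and between -0.62 and 0.36 on the other 16 arrays.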
